A study of Homo sapiens with 6 samples.

Results

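ERK feedback genes and ligands of the epidermal growth factor receptor (EGFR) were followed through 3 knockdowns in LS180 cells. They are genes long used as transcriptional readouts of RAS-ERK signalling. The 10 genes were DUSP4, DUSP5, DUSP6, SPRY2, SPRY4, SPRED1, ETV4, ETV5, AREG and EREG, chosen by symbol from the annotation of the array platform. That annotation lists a probe set, the group of array probes that reads a transcript, for 8 of the 10, and these 8 are the measured members among 14812 named genes. SPRED1 and AREG were not analysed here.

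LS180 is a human cell line established from a colorectal adenocarcinoma. The cells had been transfected with an siRNA targeting the beta-catenin gene CTNNB1, the transcription factor gene MYC, or MYU, a long non-coding RNA listed as VPS9D1-AS1. Total RNA of each was hybridised to 1 Affymetrix array. A control siRNA array is named for each knockdown, giving 6 arrays in 3 pairs, and every array comes from the same line. One label of the CTNNB1 array, its treatment tag, reads CTNNB2, and its other labels read CTNNB1. The controls named for CTNNB1 and for MYC are both numbered 1, and the control named for MYU is numbered 2, so the CTNNB1 and MYC pairs may share a control.

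In the EGFR pathway a ligand such as epiregulin or amphiregulin is shed from the cell surface and activates its receptor, which loads RAS with GTP and starts the RAF, MEK and ERK kinase cascade. ERK then turns on genes that restrain the cascade, among them dual-specificity phosphatases (DUSP), which remove phosphate from MAP kinases, and Sprouty and SPRED proteins, which block signalling between the receptor and RAF. ERK also turns on the ETS transcription factor genes ETV4 and ETV5. In intestinal epithelium this pathway supports crypt growth together with Wnt signalling, in which beta-catenin is the nuclear effector.

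Promoter windows are shown for the members that RefSeq gives here, because 3 of these genes had higher values in the CTNNB1 siRNA array and the fourth, EREG, did not. They run 5′ to 3′ from 250 bases before to 50 bases after a RefSeq start of build GRCh38.p14. Capitals mark the ETS motif CCGGAA, the only searched motif found.
SPRY2 (chr13:80341077-80341376, minus strand): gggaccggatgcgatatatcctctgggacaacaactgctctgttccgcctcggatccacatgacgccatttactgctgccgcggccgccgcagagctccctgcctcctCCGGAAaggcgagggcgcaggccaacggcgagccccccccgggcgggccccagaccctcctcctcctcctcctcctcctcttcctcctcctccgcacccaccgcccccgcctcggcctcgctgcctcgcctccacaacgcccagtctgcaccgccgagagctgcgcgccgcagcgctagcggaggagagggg
SPRY4 (chr5:142324198-142324497, minus strand): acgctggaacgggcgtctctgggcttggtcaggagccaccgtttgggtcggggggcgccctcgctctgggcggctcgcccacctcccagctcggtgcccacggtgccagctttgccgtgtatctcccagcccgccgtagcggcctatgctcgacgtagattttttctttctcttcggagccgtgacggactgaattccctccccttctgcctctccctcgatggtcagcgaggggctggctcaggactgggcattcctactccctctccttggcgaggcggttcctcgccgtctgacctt
DUSP6 (chr12:89352452-89352751, minus strand): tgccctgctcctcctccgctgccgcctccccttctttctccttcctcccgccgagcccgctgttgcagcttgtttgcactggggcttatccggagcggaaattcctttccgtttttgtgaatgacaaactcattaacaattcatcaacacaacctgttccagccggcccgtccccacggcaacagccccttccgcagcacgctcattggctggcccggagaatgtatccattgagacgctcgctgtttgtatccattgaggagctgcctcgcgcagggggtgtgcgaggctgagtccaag
EREG (chr4:74364895-74365194, plus strand): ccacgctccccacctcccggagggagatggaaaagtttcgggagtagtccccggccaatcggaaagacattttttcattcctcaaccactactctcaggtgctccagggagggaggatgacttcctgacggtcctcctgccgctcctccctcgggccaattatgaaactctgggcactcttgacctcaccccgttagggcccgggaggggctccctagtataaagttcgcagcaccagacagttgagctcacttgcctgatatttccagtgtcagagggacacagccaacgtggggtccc

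The table matched 4 of the 8 measured members, with 6 windows, since SPRY2 has 3 starts. DUSP4, DUSP5, ETV4 and ETV5 have no window here. The 5 motifs were searched on both strands. CCGGAA, a sequence that ETS factors bind, was found in 1 of 6 windows, and it stands in 17.2% of all 35116 windows. It was in SPRY2, with its first base 142 bases before the start. Other forms of the ETS site were not searched, so windows without CCGGAA may still hold one. The AP-1 motif TGACTCA (4.95% of all windows), the cAMP response element TGACGTCA (1.85%), the TCF/LEF motif ATCAAAG (2.62%), to which beta-catenin's partners bind, and the E-box CACGTG (7.26%), bound by MYC, were in 0 of the 6. TGACTCA and TGACGTCA do not contain one another. These matches describe letters in short windows only.

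The deposited values were centred within each pair, so that the knockdown array and its control hold the same number with opposite signs. What remains per gene is 1 log2 difference a pair, knockdown minus control, with the log base taken as 2. Expression levels cannot be read, and the epithelial identity of the line cannot be checked against marker levels. With 1 array on either side there is no replicate check, no p-value and no SD, and "higher" and "lower" describe these arrays only. Targeted transcripts were read first: MYC had a difference of -1.18 under MYC siRNA, -2.38 under CTNNB1 siRNA and 0.04 under MYU siRNA. VPS9D1-AS1 stood at -0.50 under MYU siRNA, -0.53 under CTNNB1 siRNA and -0.24 under MYC siRNA. CTNNB1 itself has no listed probe set. Differences were widest in the CTNNB1 pair, with a standard deviation over all genes of 0.51, against 0.28 for the MYC pair and 0.20 for the MYU pair.

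The CTNNB1 pair asked what differs when beta-catenin is targeted. The measured feedback inhibitors were all on the high side of 0 and the ETV factors and EREG on the low side. The 5 DUSP and Sprouty genes lay between 0.58 and 1.46, and the other 3 genes between -1.60 and -0.18. The value of 1.46 is the mean of 2 DUSP5 probe sets, which stood at 2.77 and 0.16. Of the 8 members, 2 were at least 2-fold higher (DUSP4 and DUSP5) and 1 was at least 2-fold lower (ETV4), where 2.8% of all genes were 2-fold higher and 4.14% lower, 6.94% in either direction. At 1.5-fold, 4 members were higher and 1 lower, against 6.44% and 9.8% of all genes, 16.2% in either direction. The members' median was 0.59, and the median of all genes was 0. Past 2-fold in either direction were thus 37.5% of the measured members. Without DUSP5, whose probe sets disagree, 1 member was 2-fold higher.

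**Figure D1:**
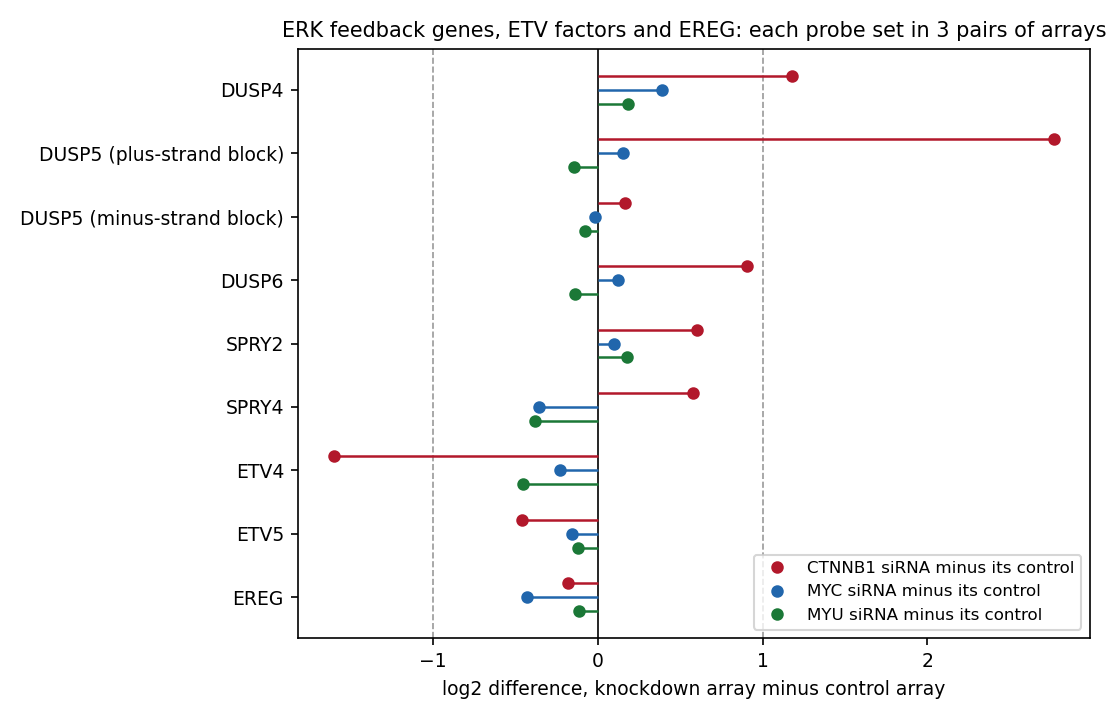
Log2 differences, knockdown array minus control array, of the 9 probe sets of the 8 measured members in the CTNNB1, MYC and MYU pairs. Each point is 1 pair of arrays, and dashed lines mark a 2-fold difference. In the CTNNB1 pair DUSP4 and 1 DUSP5 probe set lie past 2-fold on the high side and ETV4 on the low side, while no point of the MYC or MYU pair reaches 2-fold.

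DUSP4 encodes an inducible nuclear phosphatase of ERK and other MAP kinases and lies at chr8:29333064-29350684. Its centred log2 value was 0.59 in the CTNNB1 siRNA array and -0.59 in its control array, a difference of 1.17 or 2.26-fold. Only 1.94% of all genes had a higher difference in this pair. DUSP6, the cytoplasmic ERK phosphatase gene (chr12:89347235-89352501), had centred values of 0.45 in the knockdown array and -0.45 in the control array. This makes it 1.87-fold higher, by 0.90, short of the 2-fold mark.

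DUSP5 (chr10:110497907-110511533) encodes a nuclear phosphatase that acts on ERK, and its 2 probe sets gave unlike answers. Probe set 16709128 had a centred value of 1.38 in the CTNNB1 siRNA array and -1.38 in its control, a difference of 2.77 or 6.80-fold. Only 40 of 44629 probe sets had a higher difference in that pair. Probe set 16718386 had centred values of 0.08 in the knockdown array and -0.08 in the control array, a difference of 0.16. Their mean, 1.46, is the value used for the gene in all counts. The gap of 2.60 between them was the widest of the 651 genes that have several probe sets, whose median standard deviation between probe sets was 0.10 in this pair.

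The numbering of the platform was then read against the strand of the genes around each probe set. Of the 20 nearest-numbered probe sets of other genes with a known strand, 20 beside probe set 16709128 belonged to plus-strand genes of chromosome 10. Beside probe set 16718386, 20 of 20 belonged to minus-strand genes of the same chromosome. DUSP5 itself is known as a plus-strand gene. In all, 323 genes had 1 probe set in a plus-strand run of numbers and 1 in a minus-strand run, and RefSeq's promoter table gave the strand of 232 of them. Among these 232, 14 probe sets in the run of the gene's own strand were 2-fold apart in the CTNNB1 pair, against 0 in the run of the other strand. The standard deviation was 0.46 in the own-strand run and 0.18 in the other. What transcript probe set 16718386 reads was not tested.

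**Figure D2:**
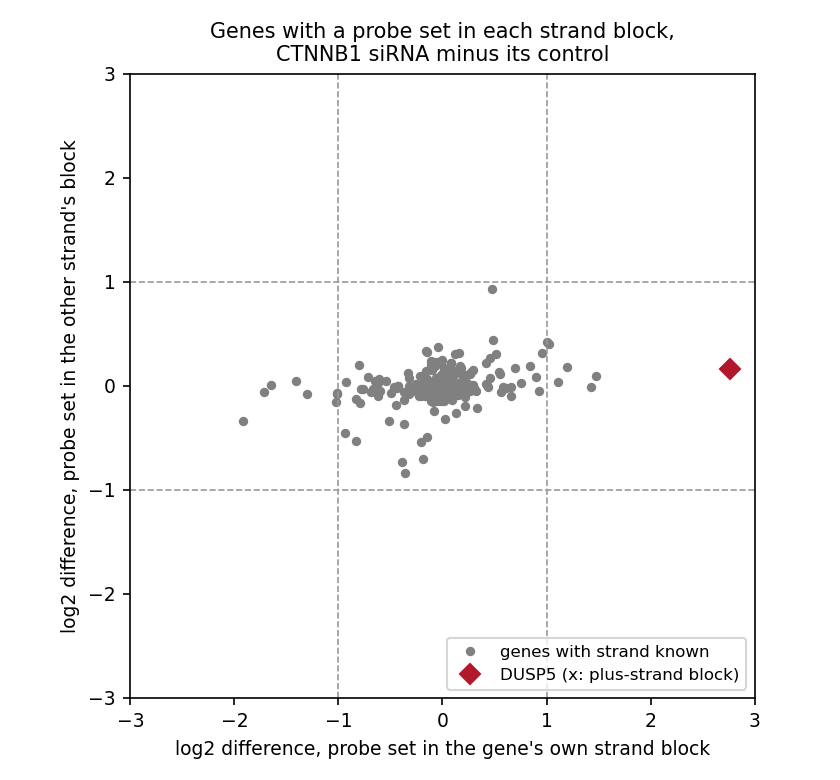
Log2 differences in the CTNNB1 pair for genes with 1 probe set in each strand's run of platform numbers. The x axis shows the probe set in the run of the gene's own strand and the y axis the other, each grey point is 1 of 232 genes with a known strand, dashed lines mark 2-fold, and the diamond is DUSP5, with its plus-strand-run probe set on x. DUSP5 lies at 2.77 on x and 0.16 on y, and grey points past 2-fold lie past it on the x axis only.

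The Sprouty genes stood close together in the CTNNB1 pair. SPRY2 (chr13:80335976-80341126), which encodes an inhibitor of receptor tyrosine kinase signalling, was higher by 0.60 or 1.52-fold, with centred values of 0.30 in the CTNNB1 siRNA array and -0.30 in its control. SPRY4 (chr5:142310430-142325021), a relative with the same role, was higher by 0.58 or 1.49-fold, with centred values of 0.29 and -0.29 in the same order. These lie just past and just short of 1.5-fold, and 6.16% and 6.56% of all genes had higher differences. Another Sprouty gene, SPRY3, had a difference of 0.23.

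ETV4 (chr17:43527846-43546340), an ETS transcription factor gene of the PEA3 subfamily, was the member lowest in the CTNNB1 pair. Its centred value was -0.80 in the CTNNB1 siRNA array and 0.80 in its control, so it was 3.03-fold lower, at -1.60. Lower differences were held by 163 of the 14812 genes. ETV5 (chr3:186046314-186109089), its closest measured relative here, differed by -0.46, and the PEA3 member ETV1 by 0.05. EREG (chr4:74365145-74388749), the gene of epiregulin, a ligand of EGFR and ERBB4, differed by only -0.18, and 41.6% of all genes were at least as far from 0.

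**Figure D3:**
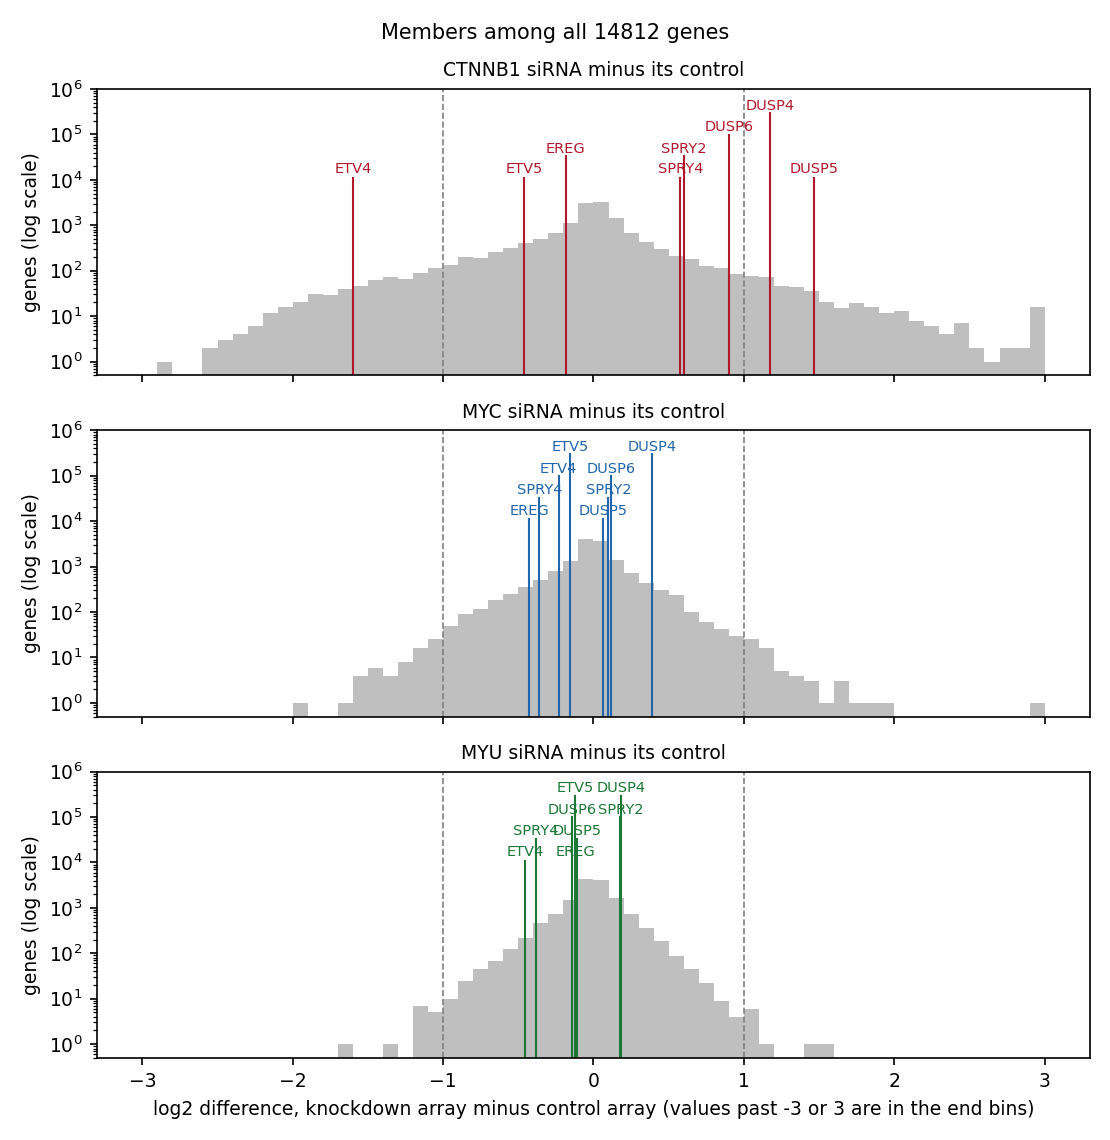
Histograms of the log2 difference of all 14812 genes in the CTNNB1, MYC and MYU pairs, on a logarithmic gene axis, with a labelled line at each of the 8 measured members (DUSP5 at the mean of its probe sets). Dashed lines mark 2-fold. Members spread from -1.60 to 1.46 (CTNNB1 pair), from -0.43 to 0.39 (MYC pair) and from -0.46 to 0.18 (MYU pair).

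With MYC siRNA the members stayed within 1.5-fold of the control. Of the 8, 0 were 2-fold apart, where 0.857% of all genes were, and 0 were 1.5-fold apart, where 5.79% of all genes were. With only 8 genes, both counts are near those shares. DUSP4 was highest, at 0.39 (1.31-fold), and 5.91% of genes had a higher difference. EREG was lowest, at -0.43 (1.35-fold lower), with 6.73% of genes lower still. SPRY4 followed at -0.36 and ETV4 at -0.23, then ETV5 at -0.15. DUSP6 at 0.12, SPRY2 at 0.10 and DUSP5 at 0.07 lay near 0. The members' median was -0.04, with 4 above and 4 below 0.

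The MYU pair likewise held 0 of 8 members at 2-fold, where 0.155% of all genes were, and 0 at 1.5-fold, where 1.88% were. Both counts are again near the shares of all genes. ETV4 was lowest at -0.46 (1.37-fold lower), and 2.59% of genes had a lower difference. SPRY4 came next at -0.38, with 3.75% of genes lower. DUSP6 (-0.14), ETV5 (-0.12), EREG (-0.12) and DUSP5 (-0.11) were slightly below 0, and DUSP4 and SPRY2 were at 0.18 each. The members' median was -0.12. Medians in this pair fell slightly with gene length. With protein-coding genes divided by length into 4 equal groups, the longest had a median of -0.02 and the shortest 0.02. The standard deviation over all genes was 0.20 in this pair. ETV4 and SPRY4 fall in the group next to the shortest, whose median was 0.01. Whether length bears on the members' values was not tested.

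Side by side, the members formed several patterns over the 3 pairs. Under CTNNB1, MYC and MYU siRNA in turn, DUSP6 had 0.90, 0.12 and -0.14, and DUSP5 had 1.46, 0.07 and -0.11, so their large values were in the CTNNB1 pair. DUSP4 had 1.17, 0.39 and 0.18 in the same order. SPRY4 changed sign between pairs, with 0.58, -0.36 and -0.38, while SPRY2 had 0.60, 0.10 and 0.18. ETV4 had -1.60, -0.23 and -0.46. EREG had -0.18, -0.43 and -0.12. Whether any member differs between knockdowns was not tested, since each has 1 array.

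ETV4, the member farthest from 0 by its gene value, was set against all other protein-coding genes by Euclidean distance over the 3 differences. The 5 nearest were ZNF280C (distance 0.06), USP28 (0.12), DHRS13 (0.20), SUPT16H (0.21) and ATR (0.21). ZNF280C had a difference of -1.58 with CTNNB1 siRNA, -0.25 with MYC siRNA and -0.40 with MYU siRNA. Such a likeness rests on 3 values a gene.

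The rest of the pathway was taken from 13 lists, which hold 119 genes besides the members, 90 of them measured. In the CTNNB1 pair 8 of the 90 were at least 2-fold higher and 4 at least 2-fold lower, against 2.8% and 4.14% of all genes, with a median of 0.07. The count of lower genes is near that share. All 4 come from the list of receptor feedback inhibitors, and they include RNF43 and ZNRF3, genes of ubiquitin ligases known for acting on Wnt receptors. At 1.5-fold the numbers were 20 higher and 9 lower, where 6.44% of all genes were higher and 9.8% lower, so the count of lower genes is near the share of all genes. Among the ligands and receptors upstream of RAS, 0 of 8 other EGF family ligands were 1.5-fold apart, with HBEGF at 0.52 and BTC, the betacellulin gene, at 0.30. EGFR was at 0.36, ERBB3 at 0.65 and ERBB4 at 0. Of 4 genes of ligand shedding, RHBDF1, an inactive rhomboid that regulates the sheddase, was highest at 0.62, and the sheddase genes ADAM10 and ADAM17 were at 0.25 and -0.21.

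Within the cascade, most genes of the CTNNB1 pair lay within 1.5-fold. Of 9 adaptors and exchange factors 0 were 1.5-fold apart, where 16.2% of all genes were, with CRKL at -0.50 and SOS2, which loads RAS with GTP, at 0.50. RRAS, a small GTPase related to RAS, was 4.42-fold higher at 2.14, and RASAL2, a RAS GTPase activator, was at 0.62, out of 8 genes. MAPK3, which encodes the kinase ERK1, was 3.40-fold higher at 1.76, and SHOC2, a scaffold that helps activate RAF, was at 0.62. The 8 genes of the RAF, MEK and ERK list had a median of 0.46, and MAP2K1 and MAP2K2, the MEK genes, had -0.04 and 0.57.

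Other inhibitors divided. Of 8 further MAP kinase phosphatase genes 2 were at least 2-fold higher, where 2.8% of all genes were. These were DUSP1, an immediate early nuclear phosphatase, at 1.74 (3.34-fold), and DUSP8, which acts mainly on stress kinases, at 1.05. DUSP14 was at 0.68 and DUSP2 at -0.61, and the remaining 4 lay between -0.02 and 0.16. ERRFI1, an inhibitor of the EGFR kinase, was just past 2-fold higher at 1.001, a value that moves below 2-fold when each pair is centred on its median. LRIG1 and LRIG3, which encode transmembrane proteins that act on growth factor receptors, were lower at -1.33 and -1.34. RNF43 (-1.48) and ZNRF3 (-1.53) were lower too. Their proteins are ubiquitin ligases known for removing Wnt receptors, so that list mixes receptor families, and its median over 7 genes was -1.33.

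Among the output genes of the CTNNB1 pair, EMP1, a membrane protein gene, was 12.2-fold higher at 3.61. EPHA2, an ephrin receptor gene used as an ERK readout, was at 1.30, and TRIB1 (0.87), MMP1 (0.80), LIF (0.80) and UPP1 (0.74) were between 1.5-fold and 2-fold higher. Below 0 were CXCL8, the interleukin-8 gene, at -0.92, BCL2L11, which encodes the pro-death protein BIM, at -0.67, and HMGA1 at -0.59. The list does not give the direction in which ERK moves each gene, so a side of 0 is not a direction of ERK output. Of 15 immediate early genes 1 was at least 2-fold higher, where 2.8% of all genes were. It was FOSL2, an AP-1 subunit gene, at 1.33, and JUN (0.82), JUNB (0.74) and JUND (0.66) followed. FOSL1 was at -0.15, EGR1 at 0.15 and FOS at 0.25. ETS2, of the ETS family, was at -0.73.

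**Figure D4:**
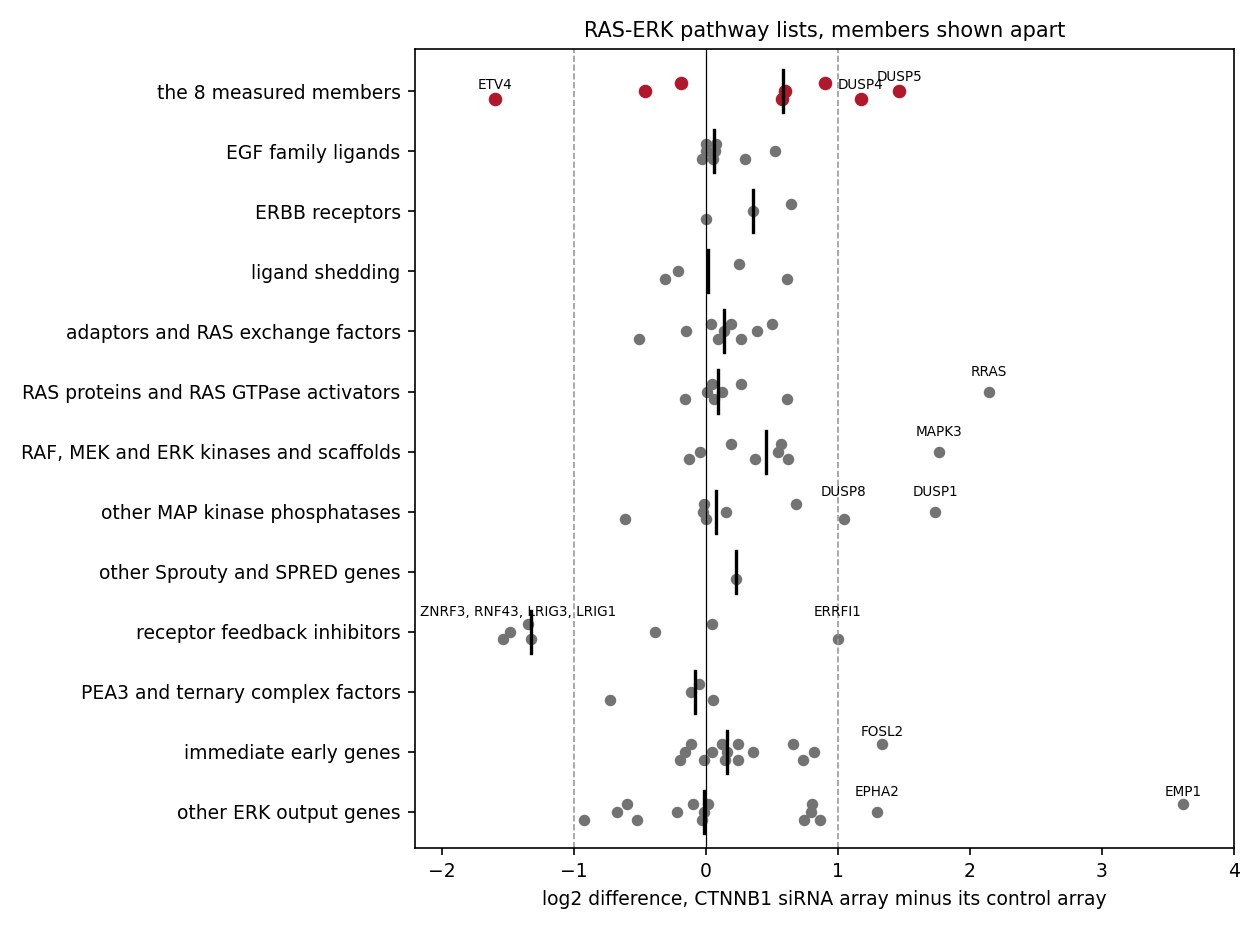
Log2 differences, CTNNB1 siRNA array minus its control array, of the 8 measured members (red, DUSP5 at its mean) and of the other measured genes in 12 pathway lists (grey). Each point is 1 gene, black bars are list medians without members, dashed lines mark 2-fold and genes past it are named. The receptor feedback inhibitors have a median of -1.33, and RRAS, MAPK3, DUSP1 and EMP1 are farthest to the right in their lists.

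A published set of 10 MAPK activity genes overlaps the members in 6 of its 9 measured genes. In the CTNNB1 pair DUSP4, DUSP6, SPRY2, SPRY4 and EPHA2 were on the high side of 0, and ETV4, ETV5, CCND1 (-0.10) and EPHA4 (-0.03) on the low side. The 9 genes thus did not share 1 direction, and their median was 0.58. The 3 that are not members had a median of -0.03, with 1 above and 2 below 0. All 9 genes had a median of 0 in the MYC pair and of -0.12 in the MYU pair. CCND1, the cyclin D1 gene, was at -0.59 in the MYC pair.

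With MYC siRNA 0 of the 90 other pathway genes were 2-fold apart, where 0.857% of all genes were. At 1.5-fold, where 2.15% of all genes were higher and 3.63% lower, 3 were higher, SOS2 (0.65), DUSP8 (0.62) and EGF (0.59), and 4 were lower, the sheddase gene ADAM17 (-0.77), ZNRF3 (-0.76), the adaptor gene GRB2 (-0.63) and CCND1 (-0.59). EGFR stood at -0.48 and SRF, a partner of the ternary complex factors, at -0.57. With MYU siRNA 0 of 90 were 2-fold apart, where 0.155% of all genes were. At 1.5-fold 0 were higher (0.668% of all genes) and 2 were lower (1.21% of all genes), EGF (-0.62) and CXCL8 (-0.60). ERBB3 (-0.58), SOS2 (-0.57) and ERRFI1 (-0.53) came next in that pair.

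Some markers of cell type also stood far from 0 in the CTNNB1 pair. Of 8 epithelial markers 6 were measured, with differences of 0.08 to 4.39. KRT20 (4.39), KRT19 (2.09) and VIL1 (1.06), genes of intestinal epithelium, were at least 2-fold higher, where 2.8% of all genes were. KRT20 was past 2-fold in the MYC pair too, at 1.16, and was at -0.73 in the MYU pair. No other epithelial marker passed 2-fold in those pairs, where 0.857% (MYC pair) and 0.155% (MYU pair) of all genes were 2-fold apart. Of 6 fibroblast markers 3 were measured, and LUM stood at 2.78 in the CTNNB1 pair while DCN (0.01) and THY1 (-0.04) were near 0. The measured leukocyte marker CD14 was at -0.03 and the endothelial marker VWF at 0.02. Their part in the members' values was not tested. In such bulk RNA a change in the makeup of the culture and a change per cell cannot be told apart.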

How the data were processed

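RNA was measured with Affymetrix arrays in 6 LS180 samples after TRIsure extraction and biotin labelling, per the labels' protocols. The authors' deposited table holds log2 expression values centred within each knockdown and control pair: the arrays of every pair sum to 0 within 1e-06, as tested on the values. Neither the background correction, the normalization between arrays, the summarisation nor the log base is given in the sources used here. Base 2 was assumed.

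Of 44629 probe sets, 15835 have 1 gene symbol in the platform annotation, 0 have several and 28794 are unnamed here. Names and positions were taken through gene identifiers from RefSeq (GRCh38.p14), giving 14812 genes, of which 11910 are protein-coding. A gene is the mean of its probe sets, which bears on 1 member, DUSP5. Genes were counted at 2-fold, with 1.5-fold as an alternative. No test was possible with 1 array a group, so counts stand beside the percentage of all genes past the same fold. Samples of a group are single arrays, and their number limits the precision.

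The members, the pathway lists and the motifs were chosen with earlier results of these data known. The genes named are every measured member, the targeted transcripts, in each list the genes past 2-fold and up to 4 with the largest difference in any pair, and the 5 protein-coding genes nearest to the member farthest from 0. BTC, EGFR, ADAM10, MAP2K1, MAP2K2, EGR1, FOS and some other list genes were named after their values were seen. Only the step from probe sets to genes and the 2-fold count were run on simulated data with known differences. Those differences were the same in every probe set of a gene, so disagreement such as that of DUSP5 was not simulated. RefSeq promoter windows are read in the direction of the gene. Python 3.11.15, numpy 2.4.6, pandas 2.3.3 and matplotlib 3.10.9 were used.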

Additional observations from a re-analysis of the deposited data

How the results depend on the processing

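Of 117 recomputed member differences, 111 moved by less than the median standard deviation between probe sets of a gene, and the 6 that moved were all of DUSP5. Only 1 member, DUSP5, has 2 probe sets, so the choice of probe set could not move the others. Centring subtracts the same number from every gene. Most of the 111 were thus bound to stay, and they do not measure how repeatable the differences are. The DUSP5 difference in the MYC pair was -0.02 by the probe set nearest to 0, against 0.07 as reported, a change of sign. No member at least 2-fold apart changed sign, but DUSP4 and ETV4 have 1 probe set each. DUSP5 stood at 0.16 in the CTNNB1 pair by its probe set nearest to 0, and at 2.77 by the one farthest from 0, which is also the one numbered among plus-strand genes. This last choice was added after seeing the data, as was leaving DUSP5 out. The count of members 2-fold higher in the CTNNB1 pair was 1 with the nearest probe set, 1 without DUSP5 and 4 at 1.5-fold. The median of the members was 0.37 in that pair with the nearest probe set, and -0.15 in the MYC pair without DUSP5. Other pathway genes at 1.5-fold numbered 20 higher and 9 lower in the CTNNB1 pair (6.44% and 9.8% of all genes), 3 higher and 4 lower in the MYC pair (2.15% and 3.63%), and 2 lower in the MYU pair (1.21%), out of 90. Centring each pair on its median moved member differences by at most 0.0077.

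The share of features 2-fold apart in the CTNNB1 pair was 3.93% over all probe sets. It was 24.7% over the 661 genes whose values carry a coarser rounding step in any of the pairs. This mark may go with a high level, and 1 member, EREG, carries it, in the MYC pair only. Levels are lost, so a filter on low values could not be applied. No paired analysis was possible because each group has 1 array and each pair keeps 1 difference.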

Other observations

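Genes with a probe set in each strand's run of platform numbers were also counted in the other pairs. Among the 232 with a known strand, 2 were at least 2-fold apart in the MYC pair by the probe set in the run of their own strand, against 0 by the other, and in the MYU pair the numbers were 0 and 0. At 1.5-fold the CTNNB1 pair had 41 and 4, the MYC pair 14 and 2, and the MYU pair 6 and 1. FOS is an example, with 0.56 in the CTNNB1 pair by its own-strand-run probe set and -0.07 by the other, where the mean of 0.25 was given above. EGR1, given above as 0.15, had 0.29 in that pair by its own-strand-run probe set and 0.01 by the other.

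IER3, an immediate early gene and a known ERK target, has 11 probe sets, which fell into separate clusters. In the MYC pair 6 of them lay between -0.85 and -0.74, and 5 between -0.13 and -0.11. In the MYU pair the same 6 lay between -0.50 and -0.46, and the same 5 between 0.22 and 0.23. The gene's means of -0.50 (MYC pair) and -0.16 (MYU pair) match neither cluster.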
